A study of Mus musculus with 149 samples.

Results

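The genes described here are the nuclear genes for the enzymes of oxidative phosphorylation, followed in single hepatocytes of the mouse. Members were chosen by symbol alone, as Nduf genes of the a, b, c, s and v series, Uqcr genes, Cox4 to Cox8 genes, Atp5 genes and Sdha to Sdhd. This gave 92 of the 20308 mouse genes in the deposited table. Of them 85 had a value above 0 in at least 20% of all cells and entered the comparisons with 8813 genes in all, called tested genes below although no significance test was run. The members comprised 36 subunits of complex I, 4 of complex II, 8 of complex III, 11 of complex IV and 15 of complex V. The others were 7 assembly factors of complex I, 9 tissue isoforms or relatives of complex IV subunits, and Atp5s and Atp5sl. The 7 members that were not tested, Cox4i2, Cox6a2, Cox6b2, Cox7b2, Cox8b, Cox8c and Ndufa4l2, all belong to the tissue isoforms.

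The cells were primary hepatocytes from the liver of 1 wild-type male C57BL/6 mouse of 8 weeks, freed by perfusing the liver with digestion medium and enriched by slow spins. No treatment or altered allele is named. Single cells were caught on Fluidigm C1 chips of 3 trap sizes, and each chip is a group. There were 80 cells from the large chip, with traps of 17 to 25 µm. The medium traps of 10 to 17 µm held 30 cells, and 39 came from small traps of 5 to 10 µm. The cells share 1 animal, so they are not replicates of a mouse and no p-value is given; each rho, ratio and share below describes these cells. For values along a measure, the low spike-in large-chip cells defined below were cut into 5 bins of 12 or 13 cells, bin 1 holding the lowest columns or the lowest spike-in shares. A gene counted as called where Spearman's rho was at least 0.2 in size, or where 2 groups of cells differed by at least 2-fold.

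Oxidative phosphorylation takes place in the inner mitochondrial membrane. Complexes I and II pass electrons from NADH and succinate to ubiquinone, complex III passes them to cytochrome c, and complex IV passes them to oxygen. Complexes I, III and IV pump protons, and complex V, the ATP synthase, uses the returning protons to make ATP. In the liver lobule, oxygen-rich blood enters at the portal tract and leaves at the central vein, and periportal hepatocytes are known for a higher oxidative activity. The subunits encoded by mitochondrial DNA were not analysed here.

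ERCC spike-ins, synthetic RNAs added to the lysis mix, took a median of 3.66% of a large-chip cell's summed values, against 82.7% (medium) and 82.8% (small). They took 50% or more in 16 large-chip cells, leaving 64, which are called low spike-in cells below; the medium and small chips held 7 and 12 such cells. A large-chip cell had a median of 7389.5 mouse genes above 0, a medium-chip cell 2306.5 and a small-chip cell 3087. The values are normalised, so the number of reads behind them is unknown. Of 8 hepatocyte markers, a list that includes Alb and Ttr, at least 3 stood at 10 or more in every one of the 149 cells. In 10 large-chip cells, 9 of them low in spike-ins, at least 3 markers of another liver cell type also stood at 10 or more. In the medium chip 3 cells had Kupffer cell markers at that level. In the small chip 1 cell had Kupffer cell markers and 2 cells had endothelial markers at that level.

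The columns of the deposited table are not sorted by chip, and the labels do not say how their order was made. The table's name mentions SCnorm, a normalisation method, and Wave-Crest, a method that orders cells by expression. An order of that kind can rest on the genes read here, so every rho with it is a description, and those of landmark genes only orient it. In the large chip the periportal genes Cyp2f2, a cytochrome P450, and Hal, histidine ammonia-lyase, had a rho with the column position of -0.81 and -0.85. The pericentral genes Cyp2e1, another P450, and Oat, ornithine aminotransferase, had 0.86 and 0.81. The early columns thus held cells rich in periportal landmarks and the late columns cells rich in pericentral ones. A score of 6 pericentral minus 6 periportal landmarks followed the position with a rho of 0.94 (large), 0.91 (medium) and 0.82 (small).

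Promoter sequence is shown because subunits of all 5 complexes had lower values late in the order. Uqcrh, which encodes the hinge protein of complex III, had the lowest rho with the order of all members. Atp5l, subunit g of the ATP synthase, and Sdhd, a membrane anchor of complex II, hold letters bound by NRF1 (nuclear respiratory factor 1), a known activator of respiratory genes. They were the members with such letters and the lowest rho among those whose 250 bases lie outside the annotated gene. The stretches are the 250 bases before a RefSeq start in GRCm38.p6, 5′ to 3′ on the gene's strand. They lie on the minus strand, at chr4:116075071-116075320 for Uqcrh, chr9:44920743-44920992 for Atp5l and chr9:50603850-50604099 for Sdhd. Capitals mark matches to the NRF1 letters GCGCANGCG or to the ETS letters CCGGAAG, on either strand.
Uqcrh: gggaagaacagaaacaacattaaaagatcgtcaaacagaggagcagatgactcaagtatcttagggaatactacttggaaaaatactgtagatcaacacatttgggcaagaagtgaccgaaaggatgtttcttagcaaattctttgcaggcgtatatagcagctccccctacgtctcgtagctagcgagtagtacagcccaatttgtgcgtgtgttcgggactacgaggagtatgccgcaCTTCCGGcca
Atp5l: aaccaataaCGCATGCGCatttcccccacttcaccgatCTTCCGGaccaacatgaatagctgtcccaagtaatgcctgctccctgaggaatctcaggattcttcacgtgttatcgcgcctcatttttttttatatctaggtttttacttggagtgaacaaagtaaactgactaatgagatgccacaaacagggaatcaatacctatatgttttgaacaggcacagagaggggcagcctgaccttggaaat
Sdhd: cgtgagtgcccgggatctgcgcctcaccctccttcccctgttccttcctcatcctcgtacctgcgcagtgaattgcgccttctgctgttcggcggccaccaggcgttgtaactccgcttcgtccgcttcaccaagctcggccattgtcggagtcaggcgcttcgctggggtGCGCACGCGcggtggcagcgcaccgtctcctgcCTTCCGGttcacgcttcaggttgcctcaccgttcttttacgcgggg

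Uqcrh holds the ETS letters just before its start, and Atp5l and Sdhd hold both motifs. RefSeq promoter windows of 250 bases before and 50 after the start were matched by symbol for 73 of the 92 members, in 78 windows. The NRF1 letters stood in 29.5% of these windows, against 13.96% of the windows of tested genes and 6.25% of all 32851 windows. The ETS letters, the core bound by GABP and its relatives, stood in 21.8%, against 18.7% and 8.86%. The letters AAGATGGCG of YY1 stood in 8.97%, against 3.40% and 1.40%, and the letters TCAAGGTCA of the oestrogen-related receptors in 2.56%, against 0.256% and 0.423%. All motifs were searched on both strands, and none of the letter strings contains another. Among tested members the 22 with the NRF1 letters had a median rho with the order of -0.26 and the 48 without had -0.27, so the letters did not separate members by their place in the order. A match is a description of the sequence, not of binding.

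In the low spike-in large-chip cells, where detection was fullest, levels are given per kilobase of transcript (kb). Small accessory subunits of complexes III and IV led. Ndufa4, a small protein counted as part of complex IV and read in all 64 cells, ran from 94.8 through a median of 1088 to 4402 in deposited units (mean 1164 ± 509, SD over cells), which is 1908 per kb. Uqcrb, which binds ubiquinone in complex III, followed with 1679 per kb (466 to 3255, median 767, in deposited units). Cox6a1, the liver form of a complex IV regulator, had 1648 per kb (297 to 2539, median 917). The ranges over cells of these 3 genes overlapped, also per kb, so their order holds for the means only.

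Other subunits of each complex came next. In complex III Uqcr11 had 1044 and Uqcrh 728 per kb, and in complex IV Cox4i1, a regulatory subunit found in most tissues, had 1023. In complex V Atp5j, coupling factor 6, had 913 per kb, Atp5g3, a gene for the c-ring, 901, and Atp5h, subunit d of the peripheral stalk, 781. In complex I the accessory subunits Ndufa1, Ndufa6 and Ndufb9 had 793, 787 and 752 per kb. In complex II Sdhb, the iron-sulphur subunit, had 339, Sdhd 265 and Sdha, the flavoprotein, 115. The 7 catalytic subunits of complex I had a median of 137 per kb (52.9 to 190), against 217 (22.4 to 793) for its other 29 subunits, a split of members drawn up after their values were seen. The assembly factors of complex I had 81.7 per kb for Ndufaf2, 46.2 for Ndufaf1, 24.8 for Ndufaf4 and 2.97 for Ndufaf5, so the upper ones overlapped the lower subunits.

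**Figure D1:**
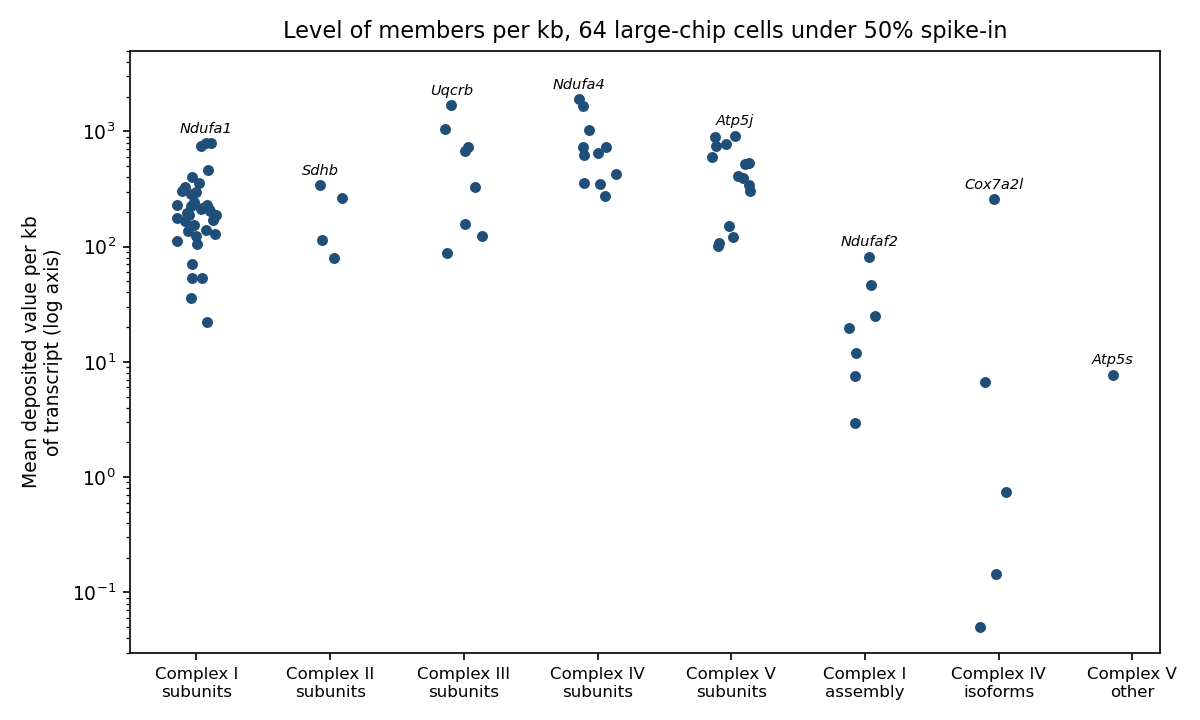
Mean deposited value per kb of transcript (log axis) of each member with a transcript length and a mean above 0, in the 64 large-chip cells under 50% spike-in, by role; each point is a gene and the highest is named. Ndufa4 (1908), Cox6a1 (1648) and Uqcrb (1679) stand at the top, and assembly factors and tissue isoforms reach below 10.

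Where complex IV has several forms of a subunit, the form known from liver carried the signal. Cox4i1 was read in all 64 low spike-in large-chip cells, with values of 69.1 to 5543 (median 634), while Cox4i2, the form known from lung, was above 0 in 1 cell at 2.34. Cox6a2, the heart and muscle partner of Cox6a1, was listed at 0 in all 149 cells, as were Cox7b2 and Cox8c, known from testis, and Cox8b, known from heart. Cox6b1 ran from 0 to 2566 (median 335), while the testis form Cox6b2 was above 0 in 6 of the 64 cells, at no more than 9.99. Cox8a, the form found in most tissues, ran from 8.13 to 1032 (median 163).

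Cox7a1, the muscle form, had the broadest signal among the forms not known from liver: it was above 0 in 29 of the 64 cells, with a median of 0 and a highest value of 37.2. Cox7a2, its liver partner, ran from 69.1 to 2596 (median 326), and per kb stood at 644 against 6.74 for Cox7a1. Ndufa4l2, a relative of Ndufa4 known to respond to low oxygen, was above 0 in 7 cells, at no more than 3.12. In complex V all 3 c-ring genes, whose mature proteins are identical, were present. Atp5g3 had 901 per kb, and Atp5g1 and Atp5g2 had 108 and 102. The Atp5g1 transcript used for this scale is long (4715 bp), so its level per kb depends on the transcript model. Reads of these similar genes and of processed pseudogenes, which many members have, may have been split between copies by the authors' estimation.

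Subunits of every complex had lower values in the later, pericentral columns. Over the 80 large-chip cells 60 of 85 members were called falling along the order, where 12.5% of all tested genes were. Only Ndufaf6 and Atp5s were called rising, both at 0.22, where 5.91% of all tested genes were. The median rho of the members was -0.26, against -0.03 for all tested genes. With Pearson's r of log2 values 6 members passed -0.2, or 7.06%, against 5.51% of all tested genes. Without the 23 large-chip cells of highest summed value, Pearson's r put 66 members past -0.2, against 15.6% of all tested genes. Along the landmark score in place of the order, 64 members were called falling (13.9% of all tested genes) and 1 rising (5.55%). In the 64 low spike-in cells 66 members were called falling (15.3% of all tested genes) and 3 rising (9.67%), with a median of -0.34 against -0.02.

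The 3 members with the lowest rho over the large chip came from complexes III and V. Uqcrh (chr4:116066965-116075071, minus strand) had values in the low spike-in cells from 258 through a median of 372 to 2027 in bin 1 of the columns and from 154 through 189 to 275 in bin 5. Bin 5 thus lay below the median of bin 1, with overlapping ranges. Its rho was -0.63 in these cells and -0.50 in all 80. Atp5o, the subunit that ties the peripheral stalk to the head of the ATP synthase, had 360 through 452 to 1788 in bin 1 and 108 through 253 to 393 in bin 5 (rho -0.58, and -0.47 in all 80 cells). Atp5g1 had 314 through 434 to 1677 in bin 1 and 65.7 through 221 to 414 in bin 5 (rho -0.58, and -0.46 in all 80 cells). For these 3 genes the lowest, the median and the highest value were all lower in bin 5 than in bin 1, and these bins overlapped. For each gene the highest value of bin 1 came from the same cell, which held 29.8% spike-in and summed to 5563640. The median cell of bin 1 summed to 1802270. The next highest values of bin 1 were 497 for Uqcrh, 661 for Atp5o and 536 for Atp5g1.

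**Figure D2:**
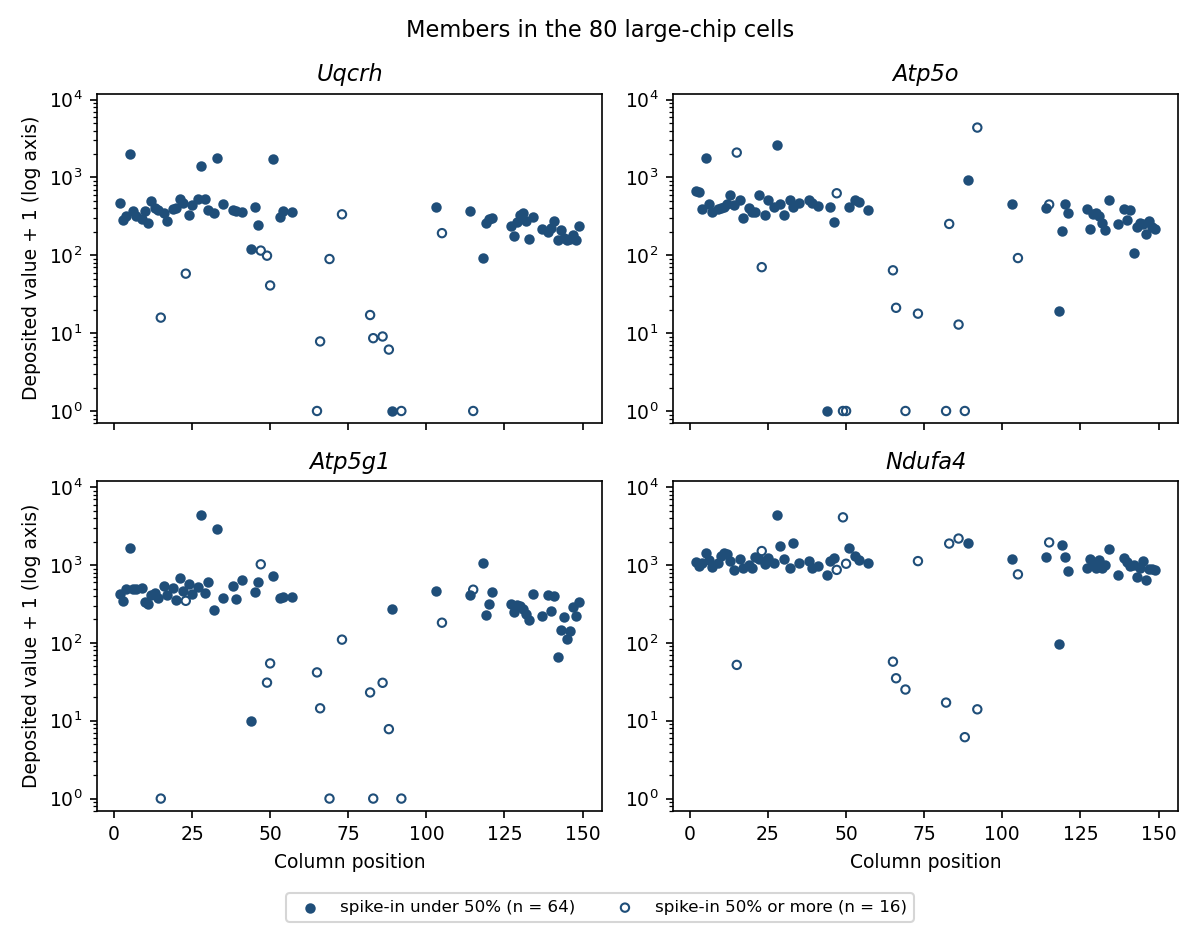
Deposited value plus 1 (log axis) of Uqcrh, Atp5o, Atp5g1 and Ndufa4 against column position in the 80 large-chip cells; filled points are cells under 50% spike-in and open points the 16 cells at 50% or more. Filled points of the first 3 genes lie lower at the right end, those of Ndufa4 shift less, and many open points lie far below the filled ones.

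By complex, the ATP synthase was the most uniform. All 15 of its subunits were called falling both in all 80 large-chip cells and in the low spike-in cells, where 12.5% and 15.3% of all tested genes were. Their median rho in the low spike-in cells was -0.45 (lowest -0.58, highest -0.28). Complex IV followed with 10 of 11 subunits in all cells and 11 of 11 in the low spike-in cells (median -0.40). Cox5b, a zinc-binding subunit, ran lowest in the full chip at -0.42, and Ndufa4 and Cox6a1, the most abundant of the complex, had -0.22 and -0.18. In complex II 3 of 4 subunits were called in either set: Sdhb and Sdhd with Sdhc, while Sdha had -0.18 in all cells and -0.19 in the low spike-in cells.

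Complexes I and III were mixed. In complex I 24 of 36 subunits were called in all cells and 28 in the low spike-in cells, with a median of -0.33 in the latter. Of all tested genes 12.5% and 15.3% were called falling in these sets of cells. Ndufa12 and Ndufb2 had the lowest rho in all cells (both -0.44). Of its 7 catalytic subunits 4 were called in the low spike-in cells (median -0.23), against 24 of the 29 others (median -0.34). Among the catalytic subunits Ndufs3 had -0.14 there. In complex III 6 of 8 subunits were called: the 5 small subunits, with a median of -0.42, and Uqcrc1 at -0.33, while the core protein Uqcrc2 had -0.12 and the Rieske iron-sulphur protein Uqcrfs1 -0.18. The catalytic subunits of complex I have longer transcripts (median 1623 bp) than its other subunits (875 bp), and the part of length in this difference was not tested.

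Of the 11 tested members that are no subunits 3 were called falling and 3 rising in the low spike-in cells. Of all tested genes 15.3% and 9.67% were. Cox7a1 had a rho of -0.29 and Cox7a2l, a relative of Cox7a2, -0.25. Of the 7 assembly factors of complex I only Ndufaf2 was called falling in the low spike-in cells (rho -0.30). Ndufaf6 (0.31) and Ndufaf7 (0.22) were called rising. Ndufaf6 was above 0 in 49 of the 64 cells, with a median of 2.02 in bin 1 and 12.05 in bin 5. Ndufaf7 had a median of 3.66 in bin 1, 48.2 in bin 4 and 21.5 in bin 5. Atp5s, coupling factor B, was above 0 in 33 cells and had a rho of 0.25, and its relative Atp5sl had 0.16. The medians of Ndufaf6 and Atp5s lie near 0, and the number of genes above 0 went from a median of 7448 per cell in bin 1 to 7832 in bin 5. The part of detection in these values was not tested.

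**Figure D3:**
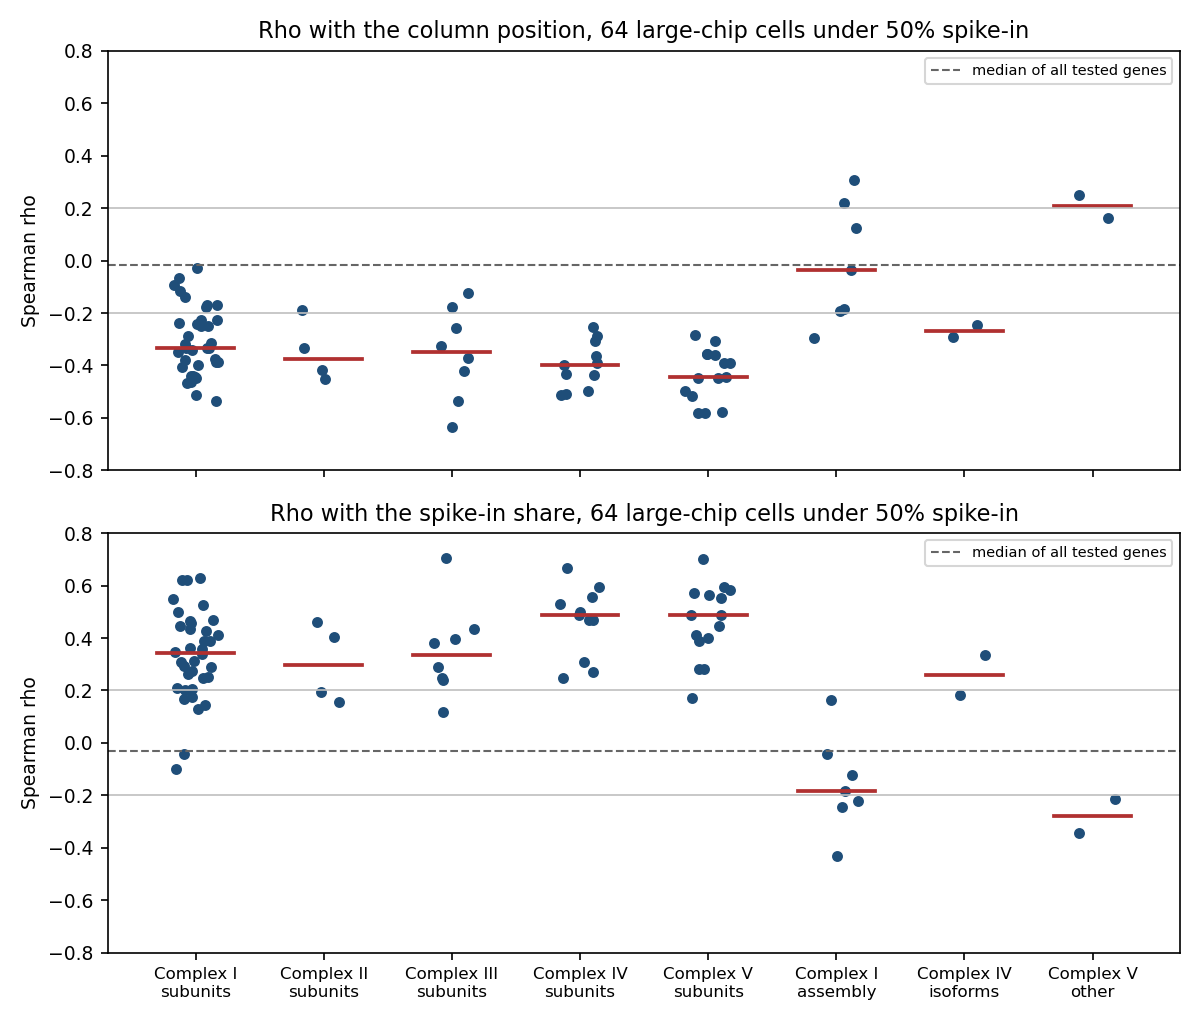
Spearman rho of each tested member with the column position (upper panel) and with the spike-in share (lower panel) over the 64 large-chip cells under 50% spike-in, by role; red bars are medians of a role, the dashed line is the median of all tested genes and grey lines mark 0.2 in size. Subunits of all 5 complexes lie below 0 in the upper panel and, but for 2 of complex I, above 0 in the lower one, and assembly factors lie on both sides.

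Added up, the members held a median of 1.33% of a large-chip cell's mouse signal (0.484% to 2.91%), and this share was lower late in the order. In the low spike-in cells the median share was 1.40%, 1.46% and 1.40% in bins 1 to 3, 1.14% in bin 4 and 0.946% in bin 5. Bin 1 spanned 1.21% to 1.66% and bin 5 0.635% to 1.19%, so these ends did not overlap, while bins 2 to 4 reached from 0.484% to 2.36%. Over the 64 cells the rho of the share with the position was -0.61. From bin 1 to bin 5, the median share of complex I subunits went from 0.428% to 0.284%, of complex II from 0.0725% to 0.0462% and of complex III from 0.165% to 0.111%. That of complex IV went from 0.309% to 0.228% and that of complex V from 0.395% to 0.253%. The order of the 5 complexes by median share was the same at both ends. A share of signal cannot tell less of these RNAs from more of other RNAs in a cell.

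**Figure D4:**
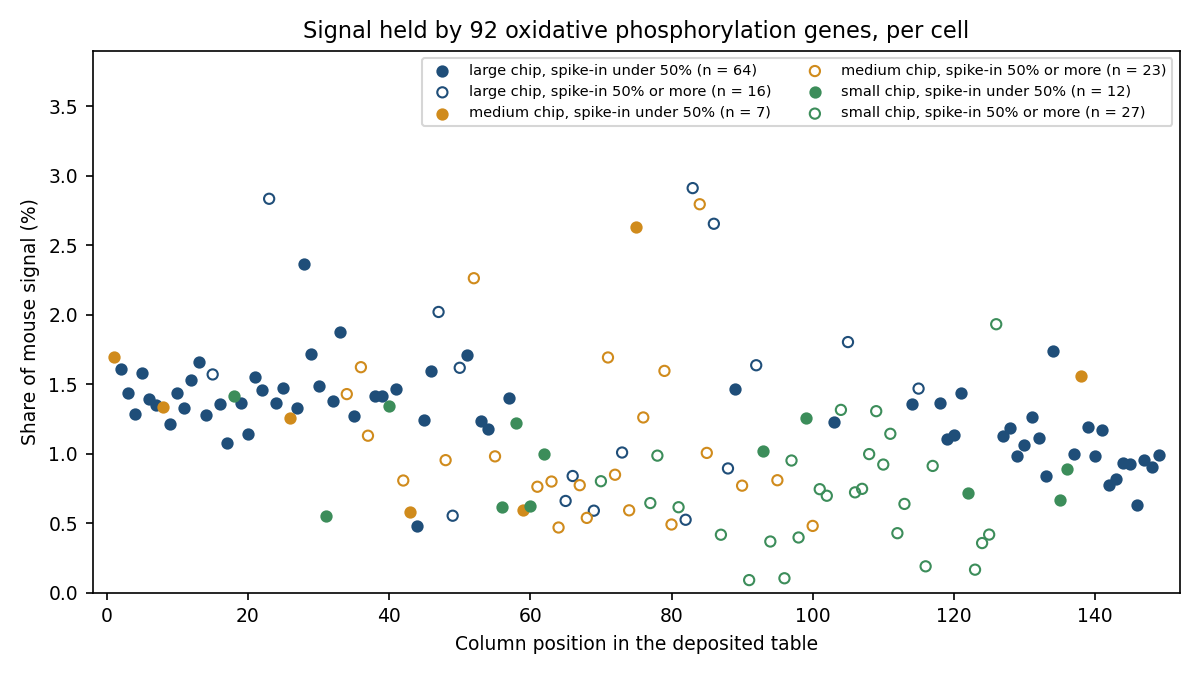
Share of a cell's mouse signal held by the 92 members (%) against the column position of all 149 cells, coloured by chip; filled points are cells under 50% spike-in. The filled large-chip points have a median of 1.40% in bin 1 and 0.946% in bin 5, and cells of the smaller chips and open points scatter more widely.

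In the smaller chips more of all tested genes were called falling too. Of 85 members 55 in the medium chip were called falling, but so were 45.4% of all tested genes, and the medians were -0.27 and -0.18. In the small chip 47 were called, against 28.9% of all tested genes, with medians of -0.21 and -0.11. None was called rising in either chip (3.26% and 3.32% of all tested genes). The number of genes above 0 per cell had a rho with the position of -0.41 (medium) and -0.20 (small). With that number held, 10 members of the medium chip were called falling (12.6% of all tested genes) and 13 rising (22.6%), and 21 of the small chip were called falling (15.7%) and 1 rising (9.88%). In the 7 medium-chip cells under 50% spike-in the members' median turned to 0.11. The rho of the summed share with the position was -0.17 (medium) and -0.11 (small).

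The spike-in share moved with the order in the same cells, so both are given for each. In the low spike-in large-chip cells the spike-in share had a rho of -0.55 with the position and a median of 4.02% in bin 1 and 2.32% in bin 5. The members' share of mouse signal had a rho of 0.75 with the spike-in share and -0.61 with the position, and Pearson's r of 0.42 and -0.56. Over all 80 large-chip cells the rho values were 0.46 and -0.48. Over the 5 bins by spike-in share, its median was 1.11%, 0.995%, 1.33%, 1.43% and 1.59%. Over the 19 such cells of the smaller chips the rho was -0.36, of the opposite sign. Holding the spike-in share, the members' share kept a rho of -0.36 with the position in the large chip. Holding the position, it kept 0.63 with the spike-in share. In the same 64 cells the number of mouse genes above 0 had a rho of -0.73 with the spike-in share. With the members' share of mouse signal that number had a rho of -0.47. The part of detection in these values was not tested.

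**Figure D5:**
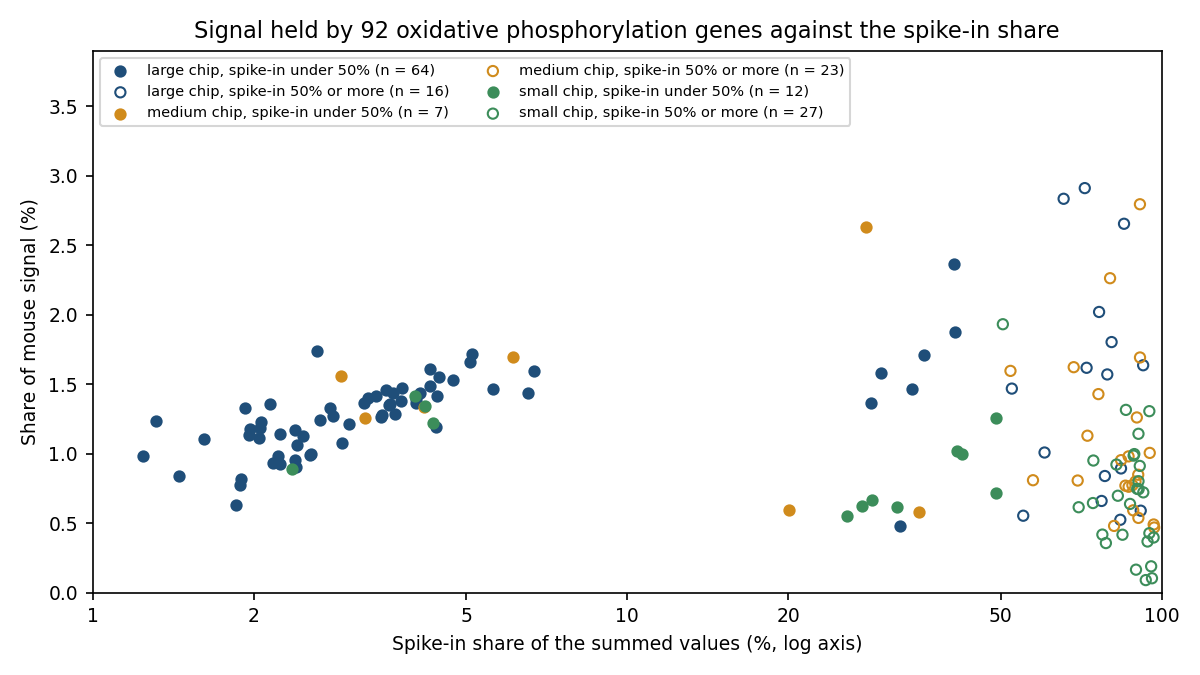
Share of a cell's mouse signal held by the 92 members (%) against the spike-in share of its summed values (%, log axis), for all 149 cells, coloured by chip, with filled points under 50% spike-in. Filled large-chip points run from a median of 1.11% in the bin lowest in spike-ins to 1.59% in the highest, and open points spread widely.

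Gene by gene, 65 of 85 members were called rising with the spike-in share in the low spike-in large-chip cells, where 16.3% of all tested genes were, and 5 falling, where 18.1% were. The medians were 0.36 and -0.03. With Pearson's r of log2 values 31 members passed 0.2, against 18.2% of all tested genes, and 20 passed -0.2, against 26.9%. Without the 7 of these cells with the highest summed values, Pearson's r gave 65 (15.5% of all tested genes) and 2 (13.4%). Uqcr10, a small subunit of complex III, had the highest rho (0.71), with a median of 194.5 in bin 1 by spike-in share and 424 in bin 5. Atp5l, subunit g of the ATP synthase, had 0.70 and medians of 278 and 531. Cox8a had 0.67 and medians of 121 and 249. The ranges of bins 1 and 5 overlapped for each of the 3 genes. These medians are on the deposited scale, on which cells of bin 5 summed to a median of 5215100 and those of bin 1 to 1805540. The part of this difference in scale in the medians was not tested. Complex IV and V subunits were called in 11 of 11 and 14 of 15, and complex I, II and III subunits in 30 of 36, 2 of 4 and 7 of 8. Ndufaf6 had the opposite sign, with a rho of -0.43, a median of 6.91 in bin 1 and 0.660 in bin 5, and Atp5s had -0.34.

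With the spike-in share held, 36 members were still called falling along the order, against 14.8% of all tested genes, and 1 rising (7.26%). By complex these were 13 of 36, 3 of 4, 5 of 8, 4 of 11 and 7 of 15 subunits of complexes I to V. Uqcrh kept -0.54 and Atp5o -0.47, while Cox8a went to -0.03 and Atp5l to -0.09. With the order held, 47 members were called rising with the spike-in share (12.6%) and 6 falling (17.7%). Atp5l kept 0.61 and Cox8a 0.59, while Uqcrh went to 0.07. The 3 members with the lowest rho along the order and the 3 with the highest rho with the spike-in share were different genes.

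Several measured properties moved with these results. Of 8 hepatocyte markers 7 were called falling along the order in the low spike-in cells; Alb had -0.64. Their summed value ran from 33629 to 335559 and had a rho of -0.59 with the position, and no marker was at 0 in all cells. The 5 markers of bile duct cells, among them Sox9 and Spp1, had summed values of 0 to 41184 and a rho of -0.63. With the spike-in share, the summed hepatocyte markers had a rho of 0.45, the bile duct markers 0.31 and the endothelial markers -0.33. Among the endothelial markers only Ptprb and Dpp4 were tested genes. Dpp4 was above 0 in 62 of the 64 cells, with a median of 61.5 against 69.05 for the endothelial sum. Among the bile duct markers Krt19 and Epcam were not tested genes. These sums do not measure the amount of a cell type. The part of these markers in the results was not tested. Without the 10 cells that carried markers of another type, 66 of 85 members were called falling in the remaining 70 large-chip cells, against 14.7% of all tested genes. Members have short transcripts, with a median of 963 bp against 3106.5 bp for all tested genes. Among tested genes of at most 1000 bp that were above 0 in at least 90% of the low spike-in large-chip cells, 33.3% were called falling over the large chip, and so were 35 of 43 such members.

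In the high spike-in cells of the large chip fewer members were read per cell, and the comparison of levels depended on the scale and on the use of means or medians. Mean values in ppm, scaled to a cell's summed mouse values, were compared between the 16 cells at 50% or more and the 64 below. Of 85 members 23 were called lower in the high spike-in cells, where 51.7% of all tested genes were, and 9 higher, where 10.3% were. The median log2 ratio was -0.15, against -1.07 for all tested genes. On the deposited scale 36 members were lower (66.2% of all tested genes) and 1 higher (5.56%). By medians over cells, which turn to 0 for a gene read in a minority of a group's cells, 69 were lower (64.97%) and 2 higher (0.783%), with a median log2 ratio of -3.22 against -1.85 for all tested genes. The members' median share of mouse signal was 1.52% in the high spike-in cells (0.526% to 2.91%) and 1.31% in the low (0.484% to 2.36%), with overlapping ranges. The members above 0 numbered a median of 54 per high spike-in cell and 83 per low spike-in cell.

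The members furthest apart rested on few cells. Atp5o had a mean of 936 ppm in the high spike-in cells against 223 ppm in the low (log2 ratio 2.06), but 1 of the 16 cells gave 73.9% of that sum. Ndufa1 had 666 ppm against 175 ppm (log2 ratio 1.93), with 80.1% from 1 cell. Ndufs6 was broader: 493 ppm against 124 ppm (log2 ratio 1.98), above 0 in 15 of 16 cells and with 23.04% from its top cell. At the other end Atp5g2 had 2.47 ppm against 42.4 ppm (log2 ratio -3.64) and was above 0 in 3 of 16 cells, and Ndufaf3 was above 0 in 1 cell (log2 ratio -3.19). Atp5s was listed at 0 in all 16. In the medium and small chips together, high against low spike-in cells gave 33 members lower (37.7% of all tested genes) and 5 higher (17.2%), with a median log2 ratio of -0.64 against -0.45.

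Between chips, over all cells, members took a lower median share of the mouse signal in the smaller traps. The median share was 0.968% for medium traps (0.470% to 2.80%) and 0.723% for small ones (0.0916% to 1.93%), with ranges that overlapped that of the large chip. By means in ppm, 28 members were called higher in the large than in the medium chip, where 29.6% of all tested genes were, and 4 lower, where 18% were. The median log2 ratio was 0.47, against 0.31 for all tested genes. By medians over cells 70 were higher (58.3% of all tested genes) and none lower (0.284%). On the deposited scale 22 were higher (37.5%) and 1 lower (12.7%), and the median of all tested genes was 0.59. Against the small chip 44 were called higher (31.5% of all tested genes) and 5 lower (15.2%), with medians of 1.03 and 0.37. Medians over cells gave 79 higher (57.7%) and none lower (0.828%). Against the small chip the complex IV subunits had a median of 1.17 and the complex V subunits 0.69. Trap size and spike-in share cannot be told apart over all cells, since most cells of the smaller chips were high in spike-ins.

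The 3 members with the highest ratios of the large chip to each other chip are genes of complex I, to which 43 of the 85 tested members belong. Ndufb6 had a mean of 135 ppm in large-chip cells, 32.5 ppm in medium-chip and 18.9 ppm in small-chip cells, with log2 ratios of 2.02 and 2.77. It was above 0 in 75 of 80, 13 of 30 and 14 of 39 cells. Ndufb8 had 175 ppm in the large and 36.4 ppm in the medium chip (log2 ratio 2.23), and Ndufa9 132 ppm in the large and 19.9 ppm in the small chip (2.68). Ndufv2, a catalytic subunit, had a log2 ratio of 2.64 to the small chip, and the assembly factor Ndufaf3 2.64 to the medium chip, where it was above 0 in 3 cells. In the other direction single cells weighed heavily. Cox7a1 had 24.5 ppm in the medium chip against 1.42 ppm in the large (log2 ratio -3.40), with 57.8% of the medium sum in 1 cell. Ndufs3 and Ndufb4 had log2 ratios of -2.02 and -1.10 to the medium chip, with 40.2% and 82.4% of its sum in 1 cell. In the small chip 1 cell gave 98.9% of Ndufaf5 and 93.1% of Ndufaf6 (log2 ratios -3.21 and -1.90). Uqcrfs1 was spread more evenly, above 0 in 36 of 39 small-chip cells, with 410 ppm against 152 ppm (log2 ratio -1.43).

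Cells under 50% spike-in were also compared alone. Against the 7 such cells of the medium chip 2 members were higher in the large chip (22.6% of all tested genes) and 2 lower (10.6%), with a median log2 ratio of -0.03 against 0.21 for all tested genes. Against the 12 such cells of the small chip 24 were higher (26.4%) and 4 lower (19.01%), with medians of 0.69 and 0.27. The large chip against the 19 cells of the smaller chips gave 4 members higher, where 15.2% of all tested genes were, and 3 lower, where 17.2% were. The median log2 ratio was 0.34, against 0.08 for all tested genes. All 11 complex IV subunits stood above 0, between 0.04 and 0.75, and 8 of 15 complex V subunits stood below it. The median share in these cells was 1.34% in the medium and 0.944% in the small chip, against 1.31% in the large chip. The lower median share of the medium chip over all cells was thus not seen in these cells.

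Other genes of mitochondrial energy production were read along the order in the same low spike-in large-chip cells, where 15.3% of all tested genes were called falling and 9.67% rising. Of the 18 tested genes of the citric acid cycle and pyruvate dehydrogenase, which feed the chain with NADH, 7 were called falling and 2 rising. Fumarase (Fh1) had a rho of -0.41 and Suclg1, of succinyl-CoA ligase, -0.40. Citrate synthase (Cs) had 0.40 and Idh3a 0.37, with the opposite sign. Of 26 assembly factors outside the symbol rule 2 were called falling, Cox17 (-0.31), a copper chaperone of complex IV, and Sco2 (-0.21), and 1 rising, Cox18 (0.24).

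Of 8 carriers and enzymes that hand electrons to the chain 3 were called falling and 2 rising. Sqrdl, which oxidises sulphide, had -0.56, the lowest of them, and the electron transfer flavoproteins Etfb and Etfa -0.32 and -0.26. Prodh, proline dehydrogenase, had 0.45 and Gpd2 0.30. Cytochrome c (Cycs) ran from 228 through a median of 961 to 3422 with a rho of -0.16. Of 6 genes for ATP export and the outer membrane, the ADP/ATP carrier Slc25a5 (-0.30) and the phosphate carrier Slc25a3 (-0.26) were called falling. Of 9 regulators 1 was, the coactivator Ppargc1b (-0.31). Ppargc1a, which is known to induce mitochondrial genes, had -0.19, and Nrf1 itself, with a median of 0.845, had 0.02.

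Members also varied together from cell to cell. Over pairs of members the median Spearman rho in the low spike-in large-chip cells was 0.24, against 0.04 over all pairs of tested genes. It was 0.46 within complex IV, 0.42 within complex V, 0.31 within complex III, 0.23 within complex I and 0.16 within complex II. Pairs of subunits from different complexes had a median of 0.30, and pairs from the same complex 0.26. Over all cells of a chip these were 0.38 and 0.36 (large), 0.45 and 0.50 (medium), and 0.50 and 0.53 (small). The smaller chips thus went the other way round. Of the 824 pairs from the same complex 630 lie within complex I, so the medians of such pairs mostly describe that complex. Over all cells the median within complex I was 0.34 (large), 0.51 (medium) and 0.55 (small). All pairs of tested genes had medians of 0.20 (large), 0.30 (medium) and 0.24 (small) over the same cells. Pairs of assembly factors of complex I had a median of 0.00, and subunits with assembly factors 0.03. With the spike-in share held the median over pairs of members was 0.16, and with the order held 0.15. All these values share cells and libraries and are descriptions of these cells.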

How the data were processed

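RNA of 149 single hepatocytes of 1 mouse was sequenced. The deposited table holds normalised signal values per gene and cell, never below 0; per the submitters' processing notes CASAVA 1.8.2, Bowtie 0.12.9, RSEM 1.2.3 and mm10 were used, and the deposited table's name mentions SCnorm and Wave-Crest, while the settings of the normalisation and the column order are not given in the sources used here. The table has 20400 entries, of which 92 are spike-ins. Similar genes may share reads.

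The tested genes are those with values above 0 in at least 20% of all 149 cells. Spearman's rho of each gene with the column position and with the spike-in share was computed within a chip, and log2 ratios of group means were computed on ppm of a cell's mouse signal with a pseudocount of 1. Partial rho holds 1 further measure. Bins are 5 runs of cells in order of position or spike-in share. Cells are not replicates, so no p-value is given, and depth is unknown, so no interval is given. Scripts were tested on simulated data. The software was Python 3.11.15 with pandas 2.3.3 and numpy 2.4.6, scipy 1.17.1 for ranks, and matplotlib 3.10.9 for drawing. Positions and lengths come from GENCODE vM21 (GRCm38) and promoters from RefSeq (GRCm38.p6).

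The members and gene lists were chosen with earlier results of these data known. Genes named by rule were the 3 members per complex highest per kb, the isoform pairs, and the 3 members per direction with the largest rho with the order or the largest log2 ratio in each contrast. Others were named after their values were seen, as were the spike-in results by gene and the core subunit split. The motif letters were also set after member values were seen. The values of 1 member are not reported here by name.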

Additional observations from a re-analysis of the deposited data

How the results depend on the processing

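Normalisation, cell depth, the order's making and the single animal limit all values, and low genes lie near detection. Of the main results on groups of members, 36 recomputed values moved by over 1.5 times or by more than the spread and 63 did not. Among the recomputed values of the other results, which include single named genes and medians of groups, 151 moved, 2 reversed sign and 344 were counted as unmoved. Along the order in the large chip, 60 members fell and 2 rose. Pearson's r gave 6 and 1, the landmark score 64 and 1, and the number of genes above 0 held gave 73 and 0; of all tested genes 5.51%, 13.9% and 28.3% fell. Of the alternatives chosen after seeing the data, the spike-in share held gave 36 and 1, where 14.8% of all tested genes fell. This alternative was computed in the 64 low spike-in cells, where 66 fell and 3 rose without it. Genes above 0 in at least 90% of low spike-in large-chip cells left 59 and 0, with no share of all tested genes given here. Leaving out the 23 cells of highest summed value gave 69 and 3 (66 and 3 by Pearson's r), against 16.7% and 15.6% falling. Leaving out cells with markers of another type gave 66 and 2, against 14.7% falling. In the medium chip the count falling went from 55 to 10 with genes above 0 held, against 12.6% of all tested genes. It went to 16 in cells under 50% spike-in (added later), where the median rho reversed to 0.107. No share of all tested genes is given here for those cells, so that count does not set the members apart. In the small chip the count falling went from 47 to 71 by Pearson's r, where the share of all tested genes went from 28.9% to 45.4%. With genes above 0 held it went to 21, against 15.7% of all tested genes. Pearson's r of Ndufb6 in the large chip was 0.00286, of the opposite sign to its rho of -0.23.

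For the spike-in share 65 members rose and 5 fell. All its alternatives with a value here were added later. Pearson's r with log2 of the share gave 31 and 20, against 18.2% and 26.9% of all tested genes. Holding genes above 0 left 1 falling (4.36% of all tested genes), and leaving out cells with other markers left 3 (18.4%). Without the 7 cells of highest summed value 2 fell (12.4%), and by Pearson's r in the remaining cells also 2 (13.4%). The median rho over pairs of members, 0.24, was 0.34 in all large-chip cells and 0.16 with the spike-in share held, against 0.20 and 0.04 over all pairs of tested genes. Leaving the 20 highest genes out of the mouse signal put the median share at 2.37% (large), 1.83% (medium) and 1.43% (small).

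Between chips, 28 members were higher and 4 lower in the large than in the medium chip. Medians over cells gave 70 and 0, cells under 50% spike-in 2 and 2, and deposited values 22 and 1. Against the small chip, 44 were higher and 5 lower; medians gave 79 and 0, and cells under 50% spike-in 24 higher. In high against low spike-in large-chip cells, 9 were higher and 23 lower; deposited values gave 1 and 36, and medians 2 and 69. A spike-in threshold of 25% gave 11 lower and one of 75% gave 36. The share of all tested genes was not computed at these thresholds, so these counts do not set the members apart. The cause of these shifts was not tested. No paired analysis was possible because the numbers in the sample titles only count cells of 1 mouse and no test was run.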
